A study of Mus musculus with 8 samples.

Results

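This comparison set CD4-CD8- double-negative (DN) thymocytes of mice given TCDD (2,3,7,8-tetrachlorodibenzo-p-dioxin) in corn oil against those of mice given corn oil alone. It uses 4 of the 8 arrays in the study, the 2 titled DN thymocytes TCDD and the 2 titled DN thymocytes oil, chosen by title. The other 4 arrays hold DN cells sorted from the spleen (thymus emigrants) under the same 2 treatments. All mice were female C57BL/6, 6 to 8 weeks old, and received 1 intraperitoneal injection of oil or of 10 µg/kg TCDD, FITC 5 days after that to label cells of the thymus, with the sort 24 h after the FITC. Every probe set with 1 gene symbol was compared, 20393 of 22690, covering 12394 genes.

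Several labels conflict. The free text of both TCDD thymocyte arrays describes an injection of oil alone, whereas their titles and Treatment fields name TCDD, which was followed here. The Treatment field gives TCDD as 10 nM and not as an injected dose. Whether both arrays of a group hold RNA of different mice or pools is not given in the labels, so every p-value measures only the spread between these arrays, which may be technical. With 2 arrays against 2, an exact two-sided permutation test of a single value cannot go below p = 0.333.

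TCDD is the classical high-affinity ligand of the aryl hydrocarbon receptor (AhR), a transcription factor held in the cytosol by a chaperone complex until a ligand binds. The receptor then enters the nucleus, pairs with ARNT and binds DNA at sites that contain a short GCGTG core. DN thymocytes are the earliest T cell precursors of the thymus. They rearrange the T cell receptor beta gene, divide in a burst once the pre-T cell receptor signals, and go on to express CD4 and CD8. Exposure to TCDD is known to shrink the thymus.

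The T lineage markers were well above the array medians of 4.81 to 4.86 in all 4 arrays. Cd3e, a chain of the CD3 complex, lay at 8.32 and 8.13 in oil and at 8.34 and 8.09 in TCDD (log2 RMA values, number 1 then number 2, as throughout). Ptcra, the invariant chain of the pre-T cell receptor, lay at 8.83 and 9.20 in oil and at 8.95 and 9.45 in TCDD. Cd4 stayed near the array medians, between 4.53 and 5.20. Cd8a was at 5.15 and 6.66 in oil and at 5.05 and 7.14 in TCDD, so that it went with the array number more than with treatment. Cd8b1, the other CD8 chain, lay at 4.18 and 5.10 in oil and at 4.72 and 5.75 in TCDD. It was higher in TCDD by 0.54 within number 1 and 0.66 within number 2, but its groups overlapped. Its values in the arrays of number 1 were below the array medians. Markers of other cells were also present, as described further on, and the labels name no marker of the sort other than CD4 and CD8. RNA from a bulk sort cannot separate a change in the number of cells of one type from a change in RNA per cell.

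Arrays with the same number resembled each other more than arrays with the same treatment did. Spearman's correlation across probe sets was 0.985 between oil 1 and TCDD 1 and 0.986 between oil 2 and TCDD 2, against 0.956 for oil 1 with oil 2 and 0.964 for TCDD 1 with TCDD 2. The SD of the difference between the 2 oil arrays was 0.53 log2 units, while that of TCDD minus oil within a number was 0.28 for number 1 and 0.32 for number 2. The differences are therefore also given within each number. The ratio of 3' to 5' signal of the actin control probes, a measure of how complete the amplified RNA was, likewise went with the number: it was 4.12 (oil) and 4.31 (TCDD) in log2 units for number 1, and 3.12 and 3.06 for number 2.

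Few genes differed strongly between TCDD and oil in both numbers, and nearly all of those were higher in TCDD. Of the 20393 probe sets, 23 (0.113%) were at least 1 log2 unit, that is 2-fold, higher in TCDD within number 1 and within number 2. Only 3 (0.0147%) were lower by that much in both, and 3 (0.0147%) passed 1 unit with opposite signs. At 0.5 log2 units the counts were 237 (1.16%) higher, 145 (0.711%) lower and 60 (0.294%) of opposite sign. The threshold has no natural gap beside it on the higher side, where Prpf39 and Nsg2 at 1.02 lay just inside it and Adcy7 at 0.99 just outside.

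In the limma fit by group means no probe set passed an adjusted p of 0.05 (0 of 20393, 0%), and 284 (1.39%) had an unadjusted p under 0.05, of which 163 (0.799%) were higher and 121 (0.593%) lower. Oil and TCDD values were fully apart for 4227 probe sets (20.7%), with 1960 (9.61%) higher and 2267 (11.1%) lower. With the replicate block within each cell source, 1183 probe sets (5.8%) had an unadjusted limma p under 0.05, 662 (3.25%) higher and 521 (2.55%) lower, and 1 (0.0049%) passed after adjustment, that of Cyp1b1 (limma adjusted p = 0.0356). With the replicate block over the 4 thymocyte arrays only, the counts were 1801 (8.83%), with 925 (4.54%) higher and 876 (4.3%) lower, and 1 (0.0049%), the latter for Scin (limma adjusted p = 0.0404). Verbs of change are used below for these genes only. Every probe set had a limma adjusted p of 1.00 in the fit by group means. For every other gene the values are given, and a difference that did not pass the test is not shown to be absent.

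**Figure D1:**
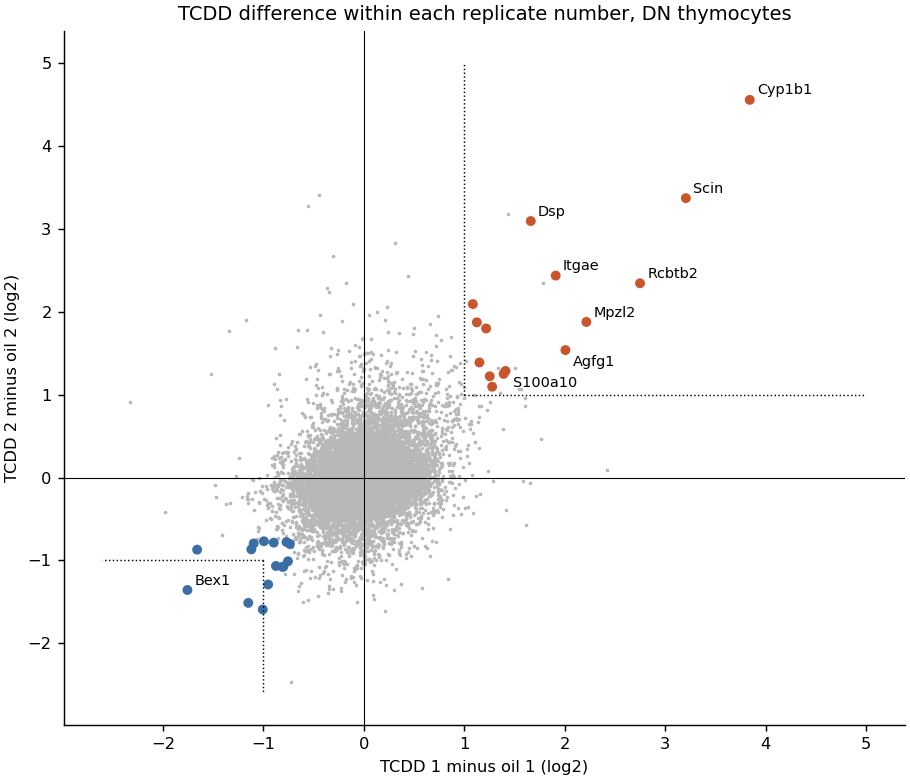
Difference between TCDD and oil (log2) within replicate number 1 (x axis) and number 2 (y axis) for each probe set with 1 gene symbol. Red points are the 15 genes highest and blue points the 15 lowest in both numbers by the smaller of the 2 differences, and dotted lines mark 1 log2 unit. Cyp1b1 and Scin lie alone at the upper right, and the Pearson correlation between the axes is 0.239 over all probe sets.

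Agreement between the numbers depended on signal level. Across probe sets, which are not independent replicates, Pearson's r between the differences of number 1 and number 2 was 0.239. Split into 5 equal parts by level, it was 0.010 in the dimmest and 0.340 in the brightest, and the share with the same sign in both numbers went from 49.2% to 59.3%. Differences of dim probe sets thus hardly repeated between numbers.

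The genes named next were taken by the size of the smaller of their 2 within-number differences, so these values describe them and are no separate evidence. Among 15 higher genes were 3 of the known AhR targets. Cyp1b1, a cytochrome P450 that oxidises steroids and polycyclic hydrocarbons, lay at 4.62 and 5.04 in oil and at 8.46 and 9.59 in TCDD. That is 14.3-fold higher in number 1 and 23.5-fold in number 2, with a group difference of 4.20 log2 units (SE 0.71), and it rose in the blocked fit. The oil values were near the array medians, so the fold rests on levels that are not shown to be above background. Of the 3 probe sets of Cyp1b1, only this one was higher by at least 0.5 units in both numbers. Scin encodes scinderin, which severs actin filaments. It lay at 7.88 and 7.37 in oil and at 11.09 and 10.74 in TCDD, 9.21-fold and 10.3-fold higher (group difference 3.29, SE 1.06), and rose in the blocked fit over the 4 thymocyte arrays. Here the oil values were well above the medians, and Scin in TCDD was among the bright probe sets. Tiparp, an ADP-ribosyltransferase that feeds back on the receptor, lay at 5.55 and 5.96 in oil and at 6.68 and 7.83 in TCDD (group difference 1.50, SE 0.57). A second probe set of Tiparp gave 0.31 in number 1 and 2.83 in number 2, so the size of its difference was uneven between probe sets and numbers.

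The other AhR targets on the list were close to the array medians or did not differ in one direction. Nqo1, a quinone reductase, lay at 4.39 and 4.83 in oil and at 5.13 and 5.02 in TCDD. Ahrr, the repressor of the receptor, lay at 4.38 and 3.89 in oil and at 4.63 and 5.00 in TCDD. Both genes were below the array medians in oil, so no fold is given. Cyp1a1, the cytochrome P450 most often used as a readout of the receptor, lay between 3.78 and 4.07. This is below the array median in all 4 arrays. Cyp1a2, Aldh3a1, Selenbp1 and Xdh were all below or at the medians too, with group differences from -0.33 (Xdh) to 0.08 (Selenbp1). Nfe2l2, a stress response factor and the only other bright member, lay at 8.29 and 8.21 in oil and at 8.58 and 7.74 in TCDD. Of the 11 targets, 7 were higher and 1 lower in both numbers, where 25.7% and 28.9% of all genes were. The receptor itself was well expressed: Ahr lay at 8.98 and 8.40 in oil and at 9.24 and 8.34 in TCDD. Arnt, its partner, lay between 4.31 and 4.88 and did not move with treatment in both numbers.

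The promoters of 4 of the higher genes are shown because each holds 1 GCGTG core in the 300 bases around its start (250 before, 50 after; RefSeq, GRCm38.p6, given 5′ to 3′ along the gene). Capitals mark the core, GCGTG or, for the other strand, CACGC. Cyp1b1 is at chr17:79715012-79715311 on the minus strand, Scin at chr12:40134179-40134478 on the minus strand, Tiparp at chr3:65528197-65528496 on the plus strand and Lgals3, described below, at chr14:47373610-47373909 on the plus strand.
Cyp1b1: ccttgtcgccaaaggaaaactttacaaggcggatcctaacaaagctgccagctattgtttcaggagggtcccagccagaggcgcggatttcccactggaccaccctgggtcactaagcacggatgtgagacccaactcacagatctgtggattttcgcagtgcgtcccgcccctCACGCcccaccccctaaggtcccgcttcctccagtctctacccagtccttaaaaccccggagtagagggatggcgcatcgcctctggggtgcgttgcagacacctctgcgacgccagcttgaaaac
Scin: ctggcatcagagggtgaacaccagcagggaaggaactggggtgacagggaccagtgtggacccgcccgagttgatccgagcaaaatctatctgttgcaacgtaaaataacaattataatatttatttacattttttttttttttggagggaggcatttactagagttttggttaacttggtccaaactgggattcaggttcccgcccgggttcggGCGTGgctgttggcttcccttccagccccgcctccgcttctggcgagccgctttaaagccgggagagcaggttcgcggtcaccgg
Tiparp: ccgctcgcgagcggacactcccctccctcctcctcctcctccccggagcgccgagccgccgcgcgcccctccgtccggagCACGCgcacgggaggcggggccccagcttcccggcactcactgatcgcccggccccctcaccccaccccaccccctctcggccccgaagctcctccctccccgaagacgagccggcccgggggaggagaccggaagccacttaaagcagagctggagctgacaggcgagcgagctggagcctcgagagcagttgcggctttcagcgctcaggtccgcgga
Lgals3: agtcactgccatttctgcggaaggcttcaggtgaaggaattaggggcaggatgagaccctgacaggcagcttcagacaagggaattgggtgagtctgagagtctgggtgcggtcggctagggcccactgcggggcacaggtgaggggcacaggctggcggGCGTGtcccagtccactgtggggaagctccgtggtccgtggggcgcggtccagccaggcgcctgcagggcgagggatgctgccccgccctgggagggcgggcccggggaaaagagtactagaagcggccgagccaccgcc

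The core starts at base -76 from the gene start in Cyp1b1, at -35 in Scin, at -170 in Tiparp and at -90 in Lgals3. A match of these letters is a description and not a binding site. Counting overlapping matches on both strands, 32.4% of the 32851 RefSeq windows of this length held the core, and so did 50.2% of the 9888 genes measured here that have a window. It was found in 8 of the 11 higher genes with a window, in 8 of the 14 lower ones and in 6 of the 9 AhR targets. The windows of Cyp1a1 and Ahrr, which were dim here, held 1 and 3 cores. Itgae, Mpzl2, S100a10 and Tmem71 had no entry.

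Of the 15 higher genes, 2 are on the integrin and adhesion list, Itgae and Mpzl2. Itgae encodes CD103, the alpha chain that pairs with the integrin beta 7 chain and binds E-cadherin on epithelial cells. It lay at 5.52 and 6.14 in oil and at 7.43 and 8.58 in TCDD, 3.76-fold and 5.41-fold higher (group difference 2.17, SE 0.39). Its partner Itgb7 lay at 6.62 and 6.31 in oil and at 7.05 and 7.41 in TCDD (group difference 0.76, SE 0.22). For both chains all TCDD arrays were above all oil arrays. Mpzl2, an immunoglobulin-like adhesion molecule of thymic and other epithelia, lay at 5.22 and 5.46 in oil and at 7.43 and 7.34 in TCDD (group difference 2.05, SE 0.29). A second probe set of Mpzl2 was higher by 1.78 and 2.35, and another by 0.19 and 0.53. Of the 19 measured members of the integrin and adhesion list, 9 were higher and 2 lower in both numbers (25.7% and 28.9% of all genes). The median difference was 0.06, against -0.01 over all genes, or 0.10 to 0.16 with any 1 thymocyte array left out. Itgae, Mpzl2 and Itgb7 thus stood above a list whose other members, such as Itgb1 (6.10 and 6.41 in oil, 6.39 and 6.18 in TCDD), were mixed in sign.

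Dsp, which encodes the desmosomal plaque protein desmoplakin, lay at 3.81 and 3.55 in oil and at 5.48 and 6.64 in TCDD. Its oil values were below the medians, so no fold is given, and a second probe set differed by 1.43 and 3.18 while the dimmest, at a mean of 3.58, did not. Rcbtb2, a protein with RCC1 repeats and a BTB domain, lay at 4.60 and 5.32 in oil and at 7.35 and 7.66 in TCDD (group difference 2.55, SE 0.34). Its brightest probe set was higher by 1.57 and 1.07. Agfg1, which helps to sort endocytic vesicles, was higher by at least 0.5 units in both numbers in all 5 of its probe sets, from 0.86 to 1.77 as group differences. This was the highest count of such probe sets for any 1 gene. Of 148 genes with several probe sets and at least 1 that was higher by 0.5 units in both numbers, 16 had 2 or more, and on the lower side it was 14 of 84.

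S100a10, a small calcium-binding protein family member that partners annexin A2 at the membrane, lay at 7.03 and 8.12 in oil and at 8.44 and 9.40 in TCDD. Lgals3, which encodes the sugar-binding protein galectin-3, lay at 6.67 and 6.38 in oil and at 7.88 and 8.17 in TCDD. Ifitm1, an interferon-inducible membrane protein, lay at 7.72 and 8.80 in oil and at 9.11 and 10.05 in TCDD. All 3 were more than 2-fold higher within each number. For S100a10 and Ifitm1 the spread between the numbers nearly matched the treatment difference, which reached 1.35 (SE 0.45) and 1.32 (SE 0.58). The remaining higher genes were Tmem71 (group difference 1.24), a membrane protein of unclear role, Add3 (1.19), which caps actin filaments in the membrane skeleton, and Arhgap5 (1.59). Of the other 2 probe sets of Add3, neither differed by 0.5 units in both numbers. No other probe set of Arhgap5 was higher by that much in both.

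**Figure D2:**
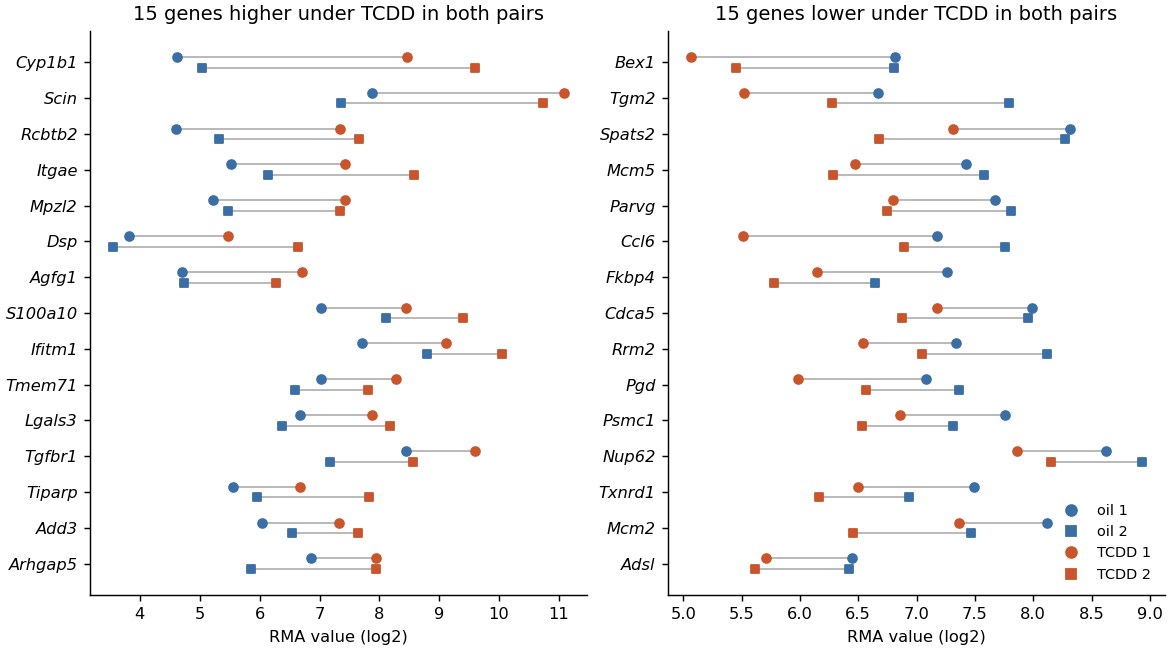
RMA value (log2, x axis) in each of the 4 DN thymocyte arrays for the 15 genes highest (left) and the 15 lowest (right) in TCDD within both numbers. Circles are number 1 and squares number 2, blue is oil, red is TCDD, and a grey line joins the arrays of a number. In every row both red points lie on the same side of both blue points.

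Signalling by transforming growth factor beta (TGF-beta) runs from ligands through a type I and a type II receptor to SMAD proteins, and it is known to induce CD103 in T cells. Tgfbr1, the type I receptor, lay at 8.45 and 7.18 in oil and at 9.60 and 8.57 in TCDD (group difference 1.27, SE 0.48). Both TCDD arrays were above both oil arrays, although TCDD 2 exceeded oil 1 by little. Tgfb3, a ligand, lay at 5.44 and 5.04 in oil and at 6.29 and 5.92 in TCDD (group difference 0.87, SE 0.30). Smad4, the shared SMAD, lay at 9.36 and 8.89 in oil and at 9.59 and 9.95 in TCDD. Skil, a SMAD corepressor, was at 8.66 and 8.19 in oil and at 9.23 and 8.85 in TCDD, and Tgfbr2, the type II receptor, at 7.79 and 7.51 against 8.08 and 8.13. Of the 14 measured members, 8 were higher and 1 lower in both numbers (25.7% and 28.9% of all genes). By 0.5 units in both, 3 were higher (1.45% of all genes were). The groups did not overlap for 7 higher and 1 lower (9.78% and 11.4% of all genes). The 1 lower member was Smad3, which was below the medians in all 4 arrays, and Tgfb1, Smad2, Tgfbr3, Ltbp3 and Ltbp4 differed in sign between numbers.

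Surface markers of the DN stages were mixed, with more higher than lower. These stages are told apart by CD44, KIT and the interleukin 2 receptor alpha chain CD25, encoded by Il2ra. Il2ra lay at 8.11 and 6.88 in oil and at 8.47 and 7.88 in TCDD, so that oil 1 exceeded TCDD 2. Kit lay at 5.89 and 6.23 in oil and at 6.77 and 6.83 in TCDD, with no overlap. Cd44 lay at 7.52 and 8.19 in oil and at 7.21 and 8.37 in TCDD, which follows the number. The transferrin receptor gene Tfrc, high in dividing precursors, lay at 9.48 and 8.88 in oil and at 10.09 and 9.61 in TCDD. Il7r, the interleukin 7 receptor, lay at 9.04 and 8.49 in oil and at 9.41 and 9.05 in TCDD, while Cd24a, which is lost as thymocytes mature, lay at 11.25 and 11.55 in oil and at 10.98 and 10.79 in TCDD. Of the 18 measured members 8 were higher and 3 lower in both numbers (25.7% and 28.9% of all genes). No overlap was seen for 5 of the higher and 2 of the lower (9.78% and 11.4% of all genes). The lower ones were Cd24a, Thy1 (9.41 and 9.37 in oil, 9.32 and 9.25 in TCDD) and Slc3a2, an amino acid transporter chain, whose groups overlapped (8.94 and 7.03 in oil, 8.01 and 6.72 in TCDD). No member passed an unadjusted limma p of 0.05.

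Notch signalling drives T lineage commitment in these cells. Of 16 measured receptors and targets, 9 were higher and 2 lower in both numbers (25.7% and 28.9% of all genes), with a median difference of 0.17. That median was 0.19 within number 1 and 0.12 within number 2, and it was 0.10 without oil 1, 0.12 without either oil 2 or TCDD 1, and 0.09 without TCDD 2. Dtx1, a Notch-induced ubiquitin ligase, lay at 7.59 and 6.58 in oil and at 8.10 and 7.44 in TCDD. Notch3 lay at 7.08 and 7.03 in oil and at 7.53 and 7.16 in TCDD, whereas Notch1 lay at 9.61 and 9.40 against 9.42 and 9.65. Myc, another target and a driver of growth, lay at 7.04 and 6.27 in oil and at 5.88 and 6.00 in TCDD, lower in both numbers. The lists of pre-T cell receptor and recombination genes (11 members, median 0.02), T cell receptor complex (19, -0.0029), T lineage transcription factors (18, -0.02), common gamma chain cytokine signalling (20, 0.04) and apoptosis regulators (24, 0.01) had medians close to that of all genes. Rag1, a subunit of the recombinase, lay at 9.85 and 9.33 in oil and at 10.21 and 9.63 in TCDD. Foxp3, the regulatory T cell factor, was below the medians in all 4 arrays, between 3.66 and 4.25.

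Genes of cell egress gave small differences with 2 exceptions. Klf2, a factor that induces the egress receptor S1PR1, lay at 4.57 and 4.57 in oil and at 5.45 and 5.87 in TCDD, with oil below the medians. Foxo1, which acts upstream of Klf2, lay at 5.83 and 6.79 in oil and at 6.63 and 7.65 in TCDD, so its groups overlapped. S1pr1 lay at 5.12 and 5.89 in oil and at 5.68 and 6.11 in TCDD, and its groups overlapped too. Over the 19 measured chemokine receptor and egress genes, 7 were higher and 2 lower in both numbers (25.7% and 28.9% of all genes). The median was 0.05, or 0.03 to 0.09 with any 1 thymocyte array left out.

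**Figure D3:**
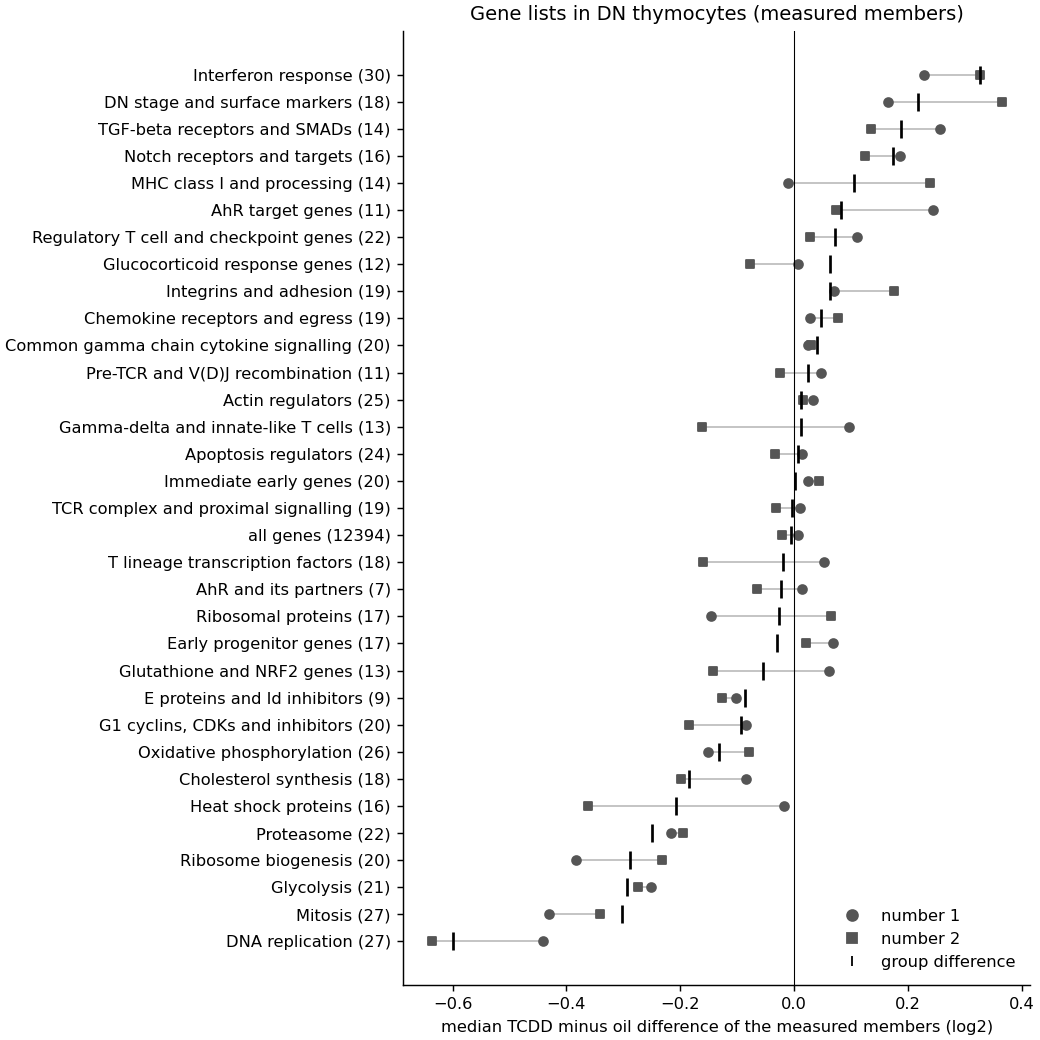
Median TCDD minus oil difference (log2, x axis) of the measured members of each gene list, with the number of members in brackets. Circles are number 1, squares number 2 and vertical bars the group difference. DNA replication lies lowest at -0.60, interferon response highest at 0.33, and all genes lie at -0.01.

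Interferon-induced genes were mostly higher in TCDD. These genes encode antiviral proteins that are switched on together by interferon through STAT and IRF factors. Of 30 measured members, 22 were higher and 0 lower in both numbers (25.7% and 28.9% of all genes), 9 were higher with no overlap between groups (9.78% of all genes), and the median was 0.33. Rsad2, which makes an antiviral nucleotide, lay at 8.21 and 8.75 in oil and at 9.36 and 9.47 in TCDD (group difference 0.94). Ifih1, a sensor of double-stranded RNA, lay at 7.86 and 7.32 in oil and at 8.40 and 8.21 in TCDD. Trim30a, a ubiquitin ligase family member, lay at 8.64 and 8.29 in oil and at 8.97 and 9.80 in TCDD. These 3 genes did not overlap between groups, whereas Rtp4, at 8.11 and 8.97 in oil and at 8.78 and 9.90 in TCDD, did. The sizes were uneven: Ifit1 lay at 5.71 and 6.11 in oil and at 5.87 and 7.33 in TCDD, and Irf1 and Gbp2 differed in sign between numbers. Only Rsad2 and Trim30a had an unadjusted limma p under 0.05. The list median was 0.21 without oil 1, 0.17 without TCDD 2, and 0.44 without either oil 2 or TCDD 1.

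The 15 genes lowest by the rule had varied roles, and 3 of them, Mcm5, Mcm2 and Rrm2, are on the DNA replication list. Bex1, a small adaptor protein, was lowest by the rule at 6.82 and 6.80 in oil and at 5.06 and 5.45 in TCDD. In the emigrant oil arrays it lay at 4.03 and 9.39, so its spread across the study was wide and the group difference of -1.56 had an SE of 1.81. Tgm2, a transglutaminase, lay at 6.67 and 7.79 in oil and at 5.52 and 6.28 in TCDD, and 5 dimmer probe sets of it differed by less. Spats2, a cytoplasmic RNA-binding protein, lay at 8.32 and 8.27 in oil and at 7.31 and 6.68 in TCDD. It was just inside 1 unit, at -1.01 for the smaller difference, and Mcm5 at -0.95 was just outside. Parvg, an actin-binding partner of integrin-linked kinase, lay at 7.67 and 7.81 in oil and at 6.80 and 6.74 in TCDD (group difference -0.97, SE 0.15), and its dim second probe set gave -0.08. Fkbp4, a cochaperone of HSP90, lay at 7.26 and 6.64 in oil and at 6.14 and 5.78 in TCDD. Ccl6, a myeloid chemokine, lay at 7.17 and 7.76 in oil and at 5.51 and 6.89 in TCDD. The summed macrophage markers were lower beside it, at 1495 and 1597 in oil and 1235 and 1454 in TCDD. The 13 markers were mixed, with 5 (38.5%) lower and 3 (23.1%) higher in both numbers, where 28.9% and 25.7% of all genes were. Their median difference was -0.14 within number 1 and -0.02 within number 2. The part of macrophages in the values of Ccl6 was not tested.

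The DNA replication list had the lowest median of the lists in the plot of list medians. Of its 27 measured members, 24 were lower and 0 higher in both numbers (28.9% and 25.7% of all genes), 11 were lower with no overlap between groups (11.4% of all genes), and 7 were lower by 0.5 units in both, where 0.766% of all genes were. The median difference was -0.60, or -0.44 within number 1 and -0.64 within number 2. Mcm5, a subunit of the MCM helicase that unwinds replication origins, lay at 7.42 and 7.57 in oil and at 6.47 and 6.29 in TCDD (group difference -1.12, SE 0.42). Mcm3 lay at 9.29 and 7.29 in oil and at 8.68 and 6.59 in TCDD, so the groups overlapped although the difference was about the same within each number, and 3 of its 5 probe sets were lower by 0.5 units in both. Mcm2 lay at 8.12 and 7.46 in oil and at 7.36 and 6.45 in TCDD, and its brighter probe set at 9.53 and 9.39 against 9.20 and 8.78. Rrm2, the small subunit of ribonucleotide reductase, which makes deoxynucleotides, lay at 7.34 and 8.12 in oil and at 6.54 and 7.05 in TCDD. Cdc45, which activates the helicase, lay at 5.87 and 5.73 in oil and at 5.08 and 5.15 in TCDD. The members with no shared direction were Pola1, Rfc3 and Prim1. The list median was -0.39 without oil 1, -0.26 without TCDD 2, -0.61 without oil 2 and -0.68 without TCDD 1.

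Mitotic genes were mixed, with more lower than higher. Of 27 measured members 17 were lower and 2 higher in both numbers (28.9% and 25.7% of all genes). The median was -0.30, or -0.43 within number 1 and -0.34 within number 2. Kif2c, a kinesin that depolymerises microtubules, lay at 8.08 and 7.16 in oil and at 7.04 and 6.55 in TCDD. Aurkb, the kinase of the chromosomal passenger complex, lay at 7.90 and 8.14 in oil and at 7.34 and 7.27 in TCDD, and Cdca5, which holds sister chromatids together, at 7.99 and 7.95 against 7.18 and 6.88. Other mitotic genes followed the number. Mki67, a general marker of cycling cells, lay at 10.40 and 7.73 in oil and at 10.41 and 8.37 in TCDD, and Bub1, a checkpoint kinase, at 8.35 and 5.72 against 7.74 and 5.84. No member passed an unadjusted limma p of 0.05. The median was -0.05 without oil 1, -0.11 without TCDD 2, -0.68 without oil 2 and -0.60 without TCDD 1, in fits where arrays of different numbers are set against each other. Among the G1 regulators, Ccnd3, the cyclin D3 gene needed for expansion of DN cells, lay at 8.44 and 7.95 in oil and at 7.51 and 7.47 in TCDD. Of the 20 measured G1 regulators, 11 were lower and 3 higher in both numbers (28.9% and 25.7% of all genes).

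**Figure D4:**
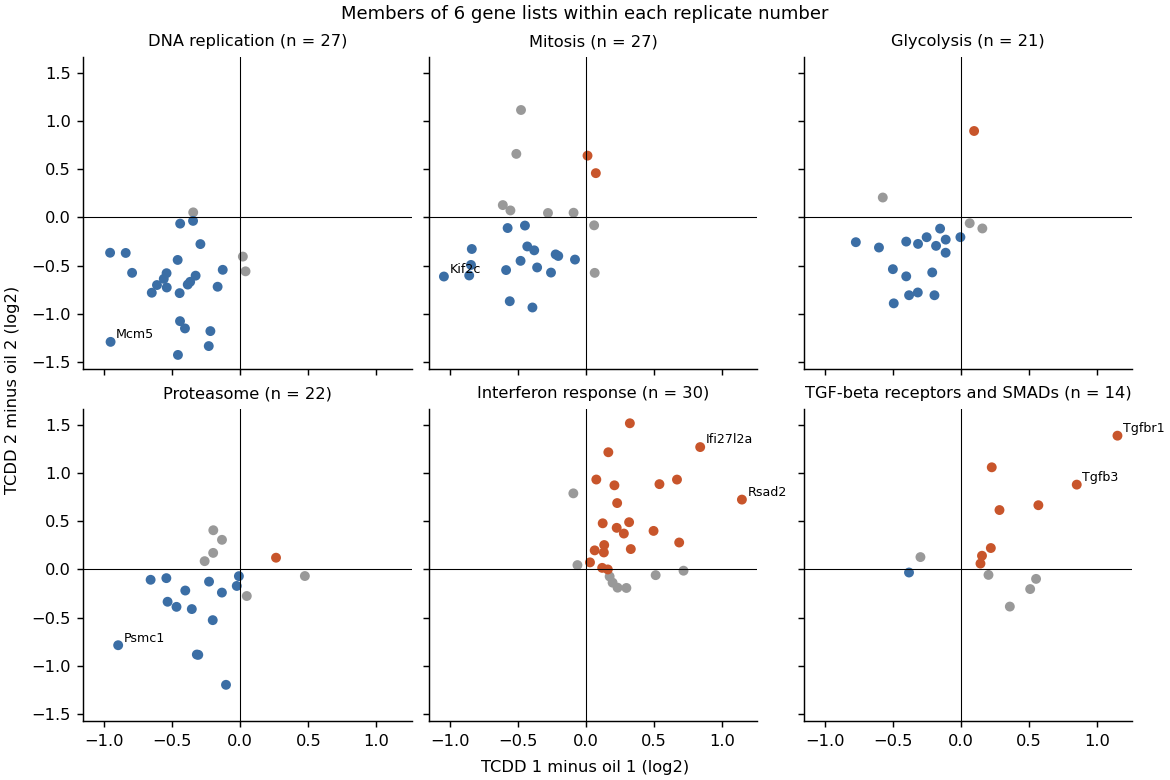
TCDD minus oil difference (log2) within number 1 (x axis) and number 2 (y axis) for each measured member of 6 gene lists. Blue points are lower and red points higher in both numbers, and grey points differ in sign. DNA replication members fill the lower left, with 24 of 27 blue, and interferon members the upper right, with 22 of 30 red.

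Enzymes of glycolysis, which feeds dividing thymocytes, were mostly lower, with group differences from -0.69 to 0.50. Of 21 measured members 17 were lower and 1 higher in both numbers (28.9% and 25.7% of all genes). No overlap was seen for 14 of the lower ones (11.4% of all genes), although no member was lower by 0.5 units in both. The median was -0.29, and it lay between -0.34 and -0.22 with any 1 thymocyte array left out. Pkm, pyruvate kinase, lay at 5.96 and 5.80 in oil and at 5.46 and 4.91 in TCDD. Aldoa, an aldolase, lay at 8.28 and 8.46 in oil and at 7.88 and 7.85 in TCDD, and 4 of its 4 probe sets were lower in both numbers. Pgd, of the pentose phosphate branch, lay at 7.08 and 7.37 in oil and at 5.98 and 6.57 in TCDD by its most changed probe set, and at 9.37 and 9.08 against 8.88 and 8.54 by its brightest. The exception was Pdk1, a kinase that restrains the use of pyruvate in mitochondria, at 8.93 and 8.40 in oil and at 9.02 and 9.30 in TCDD.

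Several other growth lists were lower as well, though not the ribosomal proteins. Over all genes, 28.9% were lower and 25.7% higher in both numbers, to be set beside each count in this paragraph. Of the 22 proteasome subunits 15 were lower and 1 higher in both numbers, with a median of -0.25, or -0.22 within number 1 and -0.19 within number 2. Psmc1, an ATPase of the regulatory particle, lay at 7.76 and 7.32 in oil and at 6.86 and 6.53 in TCDD (group difference -0.84, SE 0.26). The 1 higher member was Psma3, a core subunit, at 9.95 and 11.10 in oil and at 10.21 and 11.22 in TCDD. The proteasome median was -0.03 without oil 2, -0.06 without TCDD 1, -0.43 without oil 1 and -0.46 without TCDD 2. Of 20 ribosome biogenesis genes 14 were lower and 1 higher in both numbers (median -0.29, or -0.38 within number 1 and -0.23 within number 2), among them Nop56 at 9.07 and 8.44 in oil and at 8.43 and 7.76 in TCDD. That median was -0.06 without oil 1, -0.12 without TCDD 2, -0.47 without oil 2 and -0.44 without TCDD 1. Ribosomal proteins had a median of -0.03, with 5 (29.4%) higher and 4 (23.5%) lower of 17 in both numbers, near the shares of all genes. Of 26 oxidative phosphorylation genes 15 were lower and 3 higher in both numbers (median -0.13), with Atp5b at 10.63 and 10.59 in oil and at 10.11 and 9.95 in TCDD, and Cox6c in the opposite direction at 10.27 and 10.60 against 10.71 and 10.80. Of 16 heat shock proteins 8 were lower and 2 higher. Hsph1, a large cochaperone, lay at 9.71 and 9.79 in oil and at 9.19 and 9.19 in TCDD, while Hspa1b, an inducible HSP70, lay at 4.70 and 5.34 in oil and at 5.86 and 6.20 in TCDD. RMA gives all arrays nearly the same distribution of values, so a shift common to most genes could not be seen.

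Markers of cells other than T cell precursors were present in these sorted cells and some went with treatment. The summed linear level of 16 natural killer (NK) and cytotoxic markers was 3065 in oil 1 and 4216 in TCDD 1, and 4880 in oil 2 and 8150 in TCDD 2. Of the 16, 7 were higher and 2 lower in both numbers (25.7% and 28.9% of all genes). The median difference was -0.02 within number 1 and 0.35 within number 2, so the sum rests mostly on bright members such as Gzma. Gzma, a granzyme, lay at 10.74 and 11.60 in oil and at 11.42 and 12.29 in TCDD, and Nkg7, a granule protein, at 7.93 and 8.74 against 8.60 and 10.16. NK receptor genes were not alike. Klrd1, the receptor chain CD94, lay at 6.65 and 6.73 in oil and at 6.76 and 8.05 in TCDD, and Klrk1, the receptor NKG2D, at 5.68 and 5.64 against 5.73 and 6.13, both with no overlap. Ncr1, the receptor NKp46, lay near the medians at 5.04 and 4.72 in oil and at 4.89 and 4.74 in TCDD, and Klra1 was below them, between 2.85 and 3.06. Of the 16 markers, 12 were above the array medians in both arrays of at least 1 group. Cytotoxic and tissue-resident lymphocytes also carry CD103 and beta 7 integrin, and the part of such cells in the values of Itgae and Itgb7, in the interferon genes and in S100a10 and Lgals3 was not tested.

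Granulocyte markers (14) summed to 3821 in oil 1 and 4089 in TCDD 1, and to 2481 in oil 2 and 1365 in TCDD 2. Of these 14 markers, 6 were lower and 1 higher in both numbers (28.9% and 25.7% of all genes). Without overlap, 3 were lower and 0 higher (11.4% and 9.78% of all genes). Their median difference was -0.05 within number 1 and -0.59 within number 2. B cell markers (12) summed to 2029 and 1720 in number 1 and to 1871 and 2155 in number 2 (oil, then TCDD). Dendritic cell and MHC class II markers (12) were at 3090 and 3087 in number 1 and 4587 and 5695 in number 2. These 3 sums moved in different directions or not at all between the numbers. Ighm, the immunoglobulin heavy chain of B cells, lay between 10.14 and 10.55, and the class II gene H2-Aa between 10.65 and 11.49. Both lay above the T lineage markers Cd3e and Ptcra in all 4 arrays. Among the defining markers of other cells, Cd79a (B cells) and Hba-a1 (red cells) were below the array medians in all 4 arrays. Thymic epithelium and stroma markers (19) summed to 561 and 588 in oil and to 613 and 603 in TCDD. Without overlap, 4 members were higher and 0 lower (9.78% and 11.4% of all genes). In both numbers 7 were higher and 5 lower (25.7% and 28.9% of all genes), and the median difference was -0.03. Among the 4 without overlap, Kdr, an endothelial receptor, lay at 5.83 and 5.92 in oil and at 6.20 and 6.15 in TCDD. Krt5, an epithelial keratin, lay at 5.19 and 5.12 against 5.28 and 5.23. Foxn1, the thymic epithelial factor, and Col1a1, a collagen of fibroblasts, were below the medians in all 4 arrays. The part of these cells in the results was not tested. The platelet sum was 329 and 317 in oil and 308 and 736 in TCDD, with Pf4, a platelet chemokine, at 8.96 in TCDD 2 and between 6.52 and 6.88 in the others. The markers of double-positive thymocytes, the next stage, summed to 2146 and 2113 in oil and to 2401 and 2188 in TCDD.

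**Figure D5:**
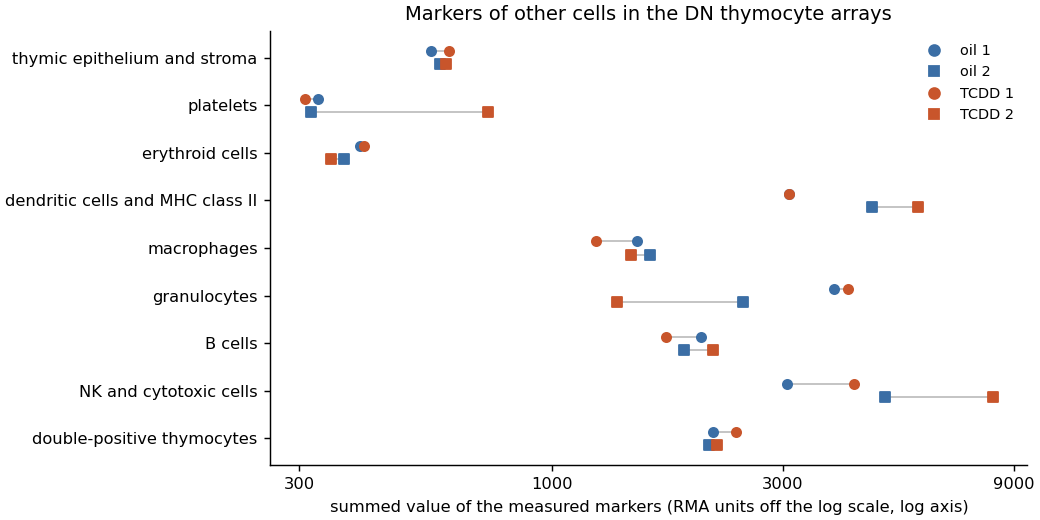
Summed level of the measured markers of 9 other cell types (x axis, RMA values taken off the log scale, log axis) in the 4 DN thymocyte arrays. Circles are number 1, squares number 2, blue is oil and red is TCDD, and a grey line joins the arrays of a number. The NK and cytotoxic sum was higher in TCDD in both numbers, from 3065 to 4216 and from 4880 to 8150. The median difference of these markers was -0.02 within number 1 and 0.35 within number 2.

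The spleen emigrants received the same treatment and have their own oil arrays. No probe set passed the limma test of the difference between the 2 effects (0 of 20393, 0%), and 258 (1.27%) had an unadjusted p under 0.05. Cyp1b1, Scin and Tiparp were higher in both sources. Lgals3 lay at 7.14 and 8.34 in emigrants with oil and at 8.44 and 9.60 in those with TCDD, a difference of 1.28 beside 1.51 in thymocytes, and Ifitm1 differed by 1.10 beside 1.32. Other genes differed less or the other way in emigrants by value. Mpzl2 lay at 2.84 and 3.73 in emigrants with oil and at 2.99 and 3.19 in those with TCDD, below the array medians. Itgae lay at 7.39 and 7.41 against 7.47 and 7.69, so that the level in emigrants with oil was near that of thymocytes TCDD 1. Rcbtb2 differed by 0.80 in emigrants and 2.55 in thymocytes. Parvg did not share the direction, at 0.09 in emigrants and -0.97 in thymocytes. The limma adjusted p of each such difference was 1.00 over all probe sets, so a difference between the sources was not shown for any of them.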

How the data were processed

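RNA of sorted cells was extracted and amplified with an Ambion MessageAmp kit and hybridised to Affymetrix arrays, per the labels' protocols. The values deposited by the authors are log2, 1 per array for 22690 probe sets. RMA is the tool in the submitters' processing notes, without a version, and detection above background cannot be read from its values. Gene names came from the platform annotation of the array, updated by gene identifier (20364 found, RefSeq GRCm38.p6). Those with several symbols (691) or none (1606) were left out. Lists use the probe set of each gene with the highest mean over 8 arrays, and 4958 genes have more than 1 probe set.

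Group differences come from limma 3.58.1, run under R 4.3.3 (lmFit and eBayes, two-sided, Benjamini-Hochberg over 20393 probe sets) by group means over the 8 arrays, with 4 residual degrees of freedom and a median residual SD of 0.22. The number of arrays limits the precision. The code was tested on simulated data.

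Same-numbered arrays of a cell source deviated together from their group means (r = 0.73 in thymocytes, 0.51 in emigrants, by title), so the numbers were taken as pairs. The blocked fits leave 2 (8 arrays) or 1 (4 thymocyte arrays) residual degrees of freedom.

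Named were the 15 genes per direction with the largest smaller within-number difference of one sign, no overlap, and the higher group above its array medians (unnamed predicted genes skipped), the AhR targets, up to 4 members of each list by the same score, and fixed stage markers. Members named to show a list's exceptions were chosen after their values were seen. The comparison, lists and rule were chosen with earlier results of these data known. Groups follow titles: the Treatment field of emigrants oil 1 names TCDD and that of emigrants oil 2 reads Dioxane 2. Alternatives covered scaling, dim probe sets, probe sets per gene, eBayes settings, pairing, that field and each array left out. Figures used matplotlib 3.10.9.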

Additional observations from a re-analysis of the deposited data

Results flagged for a closer look

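For 7 of 132 named genes every TCDD array differed from the oil arrays in one direction in thymocytes and in the opposite direction in emigrants. Many named genes were chosen for no overlap in thymocytes, where 9.78% of all genes were higher and 11.4% lower without overlap. The share of all genes with opposed directions was not counted, so the 7 are not shown to exceed it. The differences between the 2 effects below were each tested in limma, and each had an adjusted p of 1.00 over 20393 probe sets, so none was shown. Agfg1 had a log2 difference of 1.77 in thymocytes and -0.62 in emigrants, 2.39 apart. For Tgfbr1, the type I TGF-beta receptor, the values were 1.27 and -0.22, 1.49 apart. Klrd1, which encodes the NK receptor chain CD94, had 0.72 and -1.33, 2.05 apart. Ccnd3, the cyclin D3 gene, had -0.71 and 0.37, a gap of -1.08. Elane, a neutrophil protease, had -0.31 and 0.62, a gap of -0.93. Bcl2l1, which encodes the survival protein BCL-XL, had -0.11 and 0.34, a gap of -0.45, and Itgax, the integrin chain CD11c, had -0.29 and 0.08, a gap of -0.37. The emigrant arrays in these values follow their titles, which the Treatment field of oil 1 contradicts.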

How the results depend on the processing

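Each group had 2 arrays, and no measure of signal over background was used here, so differences of dim probe sets are the least certain. Of 133 named probe sets, 120 kept their sign under the 11 alternatives with all arrays and the 8 with an array left out. With the mean of the probe sets of a gene, 3 turned: Arnt to 0.027, Bcl2l1 to 0.038 and Vcam1 to -0.017. With an array left out, 11 turned, over ranges of -0.35 to 0.55 for Ahr, -0.046 to 0.15 for Aldh3a1, -0.31 to 0.26 for Arnt, -0.14 to 0.11 for Cd3e, -0.35 to 0.31 for Cd4, -0.64 to 0.51 for Cd44, -0.86 to 1.23 for Cd8a, -0.25 to 0.034 for Cyp1a1, -0.51 to 0.33 for Nfe2l2, -0.068 to 0.44 for Ptcra and -0.12 to 0.28 for Selenbp1. Of 41 lists, 21 medians turned sign in some setting and 14 moved by more than the residual SD of 0.22.

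With the replicate block, 1 probe set passed after adjustment in place of 0 (limma), and those with an unadjusted p under 0.05 numbered 1183 (662 higher, 521 lower), or 1801 (925 higher, 876 lower) over the 4 thymocyte arrays. Without the block there were 147 among the brighter probe sets (99 higher, 48 lower; 2307 without overlap, with fewer tested), and 189 lower with least squares without eBayes. With the brightest probe set per gene, 78 were lower and 2624 had no overlap. With the mean of the probe sets of a gene there were 170 (89 higher), 2592 without overlap and 11 higher by 1 unit in both numbers. At 0.5 and 2 units in place of 1 the counts were 237 and 3 higher, and 145 and 0 lower. With an array left out, 255 to 630 had an unadjusted p under 0.05 (155 to 269 higher, 98 to 370 lower), with 504 without thymocytes oil 1 and 630 without thymocytes oil 2, and 4227 to 13310 had no overlap, where a lone array cannot overlap itself. The block changed no other call.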

Other observations

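The lists described here were written after the values had been seen, so their counts describe these arrays and support nothing. Enzymes of serine and one-carbon metabolism, which supply carbon units for nucleotide synthesis, were lower in both numbers for 9 of 10 measured members and higher for 0, with a median difference of -0.45. Shmt2, the mitochondrial serine hydroxymethyltransferase, lay at 8.58 and 7.28 in oil and at 7.92 and 5.91 in TCDD. Psat1, of serine synthesis, lay at 9.23 and 8.80 in oil and at 8.42 and 8.13 in TCDD. For purine and pyrimidine synthesis 11 of 17 were lower and 1 higher (median -0.40). Gart, which catalyses several steps of purine synthesis, lay at 9.57 and 8.33 in oil and at 8.50 and 7.58 in TCDD, and Adsl, of the same pathway, at 6.44 and 6.42 against 5.71 and 5.62.

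Of 18 aminoacyl-tRNA synthetases, which charge tRNAs for translation, 13 were lower and 0 higher in both numbers (median -0.35), for example Kars at 8.70 and 7.92 in oil and at 7.92 and 7.22 in TCDD. Of 22 nucleoporins, the proteins of the nuclear pore, 18 were lower and 1 higher (median -0.32). Nup62, a protein of the central channel, lay at 9.49 and 9.46 in oil and at 8.78 and 8.77 in TCDD by its brightest probe set, and 3 of its 4 probe sets were lower by 0.5 units in both numbers. Over all genes 28.9% were lower and 25.7% higher in both numbers. Among S100 proteins, galectins and annexins 9 of 15 were higher and 1 lower (median 0.24). Lgals1, which encodes galectin-1, lay at 9.65 and 8.27 in oil and at 10.20 and 9.47 in TCDD, so oil 1 exceeded TCDD 2. S100a8, a granulocyte gene of the same family, lay at 9.96 and 9.45 in oil and at 9.98 and 8.43 in TCDD and did not share the direction.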
